A study of Mus musculus with 4 samples.

Results

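Among alveolar type I (AT1) cells of the mouse lung at postnatal day 3 (P3), those rich in transcripts of 5 immediate-early genes were set against those poor in them. The P3 library held 3149 cells, and 2891 of them had at least 0.5 times the library's median Ager level of 164 UMIs (unique molecular identifiers, 1 per captured transcript) per 10000 UMIs of the cell. These cells were ranked by the summed level of Atf3, Fosb, Nr4a1, Fos and Jun. The highest 20% (578 cells, called IEG-high below) were compared with the lowest 20% (578 cells, called IEG-low). The whole series held 9519 cells in 4 libraries. The cells were thus chosen by the measured counts of these 5 genes and Ager, and every difference between IEG-high and IEG-low cells at P3 describes the split and is no test of it.

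All cells came from mice of mixed FVB/C57BL6 strain that carried Sftpc-CreER, Rosa26-Zsgreen and Hopx-RFP and received tamoxifen, and each group is 1 library. The P3, P15 and P60 AT1 libraries were sorted as RFP-positive, Pdpn-positive cells without GFP or CD45, and the P60 alveolar type II (AT2) library as GFP-positive cells without CD45. The Hopx reporter marks the AT1 lineage, and the Sftpc-driven Cre labels AT2 cells at the time of tamoxifen, so the AT1 gate leaves out cells that had expressed Sftpc when tamoxifen was given. AT1 lungs were dissociated at room temperature in a mix that held elastase and collagenase beside neutral protease and DNase, and AT2 lungs in the last pair alone. No library was made without dissociation, so a state present in the lung and one acquired during isolation cannot be told apart. The number and sex of the animals pooled in a library were not given in the sources used here.

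AT1 cells are the thin, wide cells that form most of the gas exchange surface. Immediate-early genes are transcribed within minutes of a stimulus such as growth factor, stretch, wounding or stress, without new protein synthesis, and their messages decay quickly. Fos, Fosb and Jun encode subunits of the AP-1 transcription factor, Atf3 encodes a stress-induced partner of the same bZIP family, and Nr4a1 encodes an orphan nuclear receptor. In many tissues enzymatic dissociation is itself known to induce these genes.

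The 4 libraries held 1337 to 3149 cells with medians of 4864 to 7477 UMIs, and the P3 library was the deepest with 26536894 UMIs. It shared 15 cell barcodes with the P15 library, 5 with P60 AT1 cells and 11 with AT2 cells. No doublet caller was run. The largest cell had 22458 UMIs among IEG-high cells and 19426 among IEG-low cells.

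Promoter sequences of the chosen genes are shown because cyclic AMP response elements (CRE) are known elements of immediate-early promoters. All 5 genes matched the RefSeq promoter table (GRCm38.p6), which gives 250 bases before and 50 bases after the annotated start, and 3 of them are printed 5′ to 3′ on the gene's strand. The windows are Fos at chr12:85473640-85473939 (plus strand), Atf3 at chr1:191183284-191183583 (minus strand) and Nr4a1 at chr15:101266596-101266895 (plus strand). Capitals mark the CRE core CGTCA or its reverse complement TGACG, a motif chosen after the sequences had been seen.
Fos: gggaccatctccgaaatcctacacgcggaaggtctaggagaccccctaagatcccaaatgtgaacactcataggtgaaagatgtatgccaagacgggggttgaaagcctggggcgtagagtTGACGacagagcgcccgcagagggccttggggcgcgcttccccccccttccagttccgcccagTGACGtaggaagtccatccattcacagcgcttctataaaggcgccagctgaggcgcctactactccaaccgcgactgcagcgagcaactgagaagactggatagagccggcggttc
Atf3: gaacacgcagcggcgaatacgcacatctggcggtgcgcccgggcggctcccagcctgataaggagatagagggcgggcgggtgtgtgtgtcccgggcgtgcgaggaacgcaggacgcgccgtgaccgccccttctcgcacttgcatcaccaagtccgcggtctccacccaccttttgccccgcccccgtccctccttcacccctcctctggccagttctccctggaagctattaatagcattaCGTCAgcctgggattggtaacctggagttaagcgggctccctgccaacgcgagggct
Nr4a1: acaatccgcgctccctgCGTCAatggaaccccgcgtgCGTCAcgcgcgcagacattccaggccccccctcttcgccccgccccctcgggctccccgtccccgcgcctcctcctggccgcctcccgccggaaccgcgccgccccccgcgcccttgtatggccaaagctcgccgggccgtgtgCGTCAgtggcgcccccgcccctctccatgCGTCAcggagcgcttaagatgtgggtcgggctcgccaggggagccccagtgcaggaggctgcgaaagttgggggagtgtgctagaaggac
The core occurred 4 times in the Nr4a1 window, with first bases at -233, -213, -69 and -40 relative to the start, and 2 times in the Fos window, at -129 and -66. The Atf3 and Fosb windows held 1 each, at -7 and -60, and the Jun window held none. The core, on either strand, was in 20.8% of all 32851 promoters of that reference, and of the 2930 promoters of genes counted at P3 35.2% did. The full palindrome TGACGTCA, which contains the core, was in none of the 5 windows, and neither were the AP-1 motif TGANTCA or the serum response element core (the CArG box), each searched on both strands. Sites more than 250 bases before the start, and variants of these letters, were not searched, so their absence from these promoters is not shown. The Fos, Fosb and Nr4a1 windows each held an NF-kappaB motif, which was in 8.46% of all promoters and 10.8% of those of genes counted at P3.

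Of the 5 genes that defined the split, Fos and Jun were present in every IEG-high cell, Fosb in all but 11, Atf3 in all but 40 and Nr4a1 in all but 184. Fos had 6 to 139 UMIs per IEG-high cell with a median of 35, against 0 to 17 UMIs with a median of 1 in IEG-low cells. Jun had 4 to 84 UMIs with a median of 23 in IEG-high cells, against 0 to 9 UMIs with a median of 1 in IEG-low cells. By contrast, 34.1% of IEG-low cells lacked a Fos UMI and 26.3% lacked a Jun UMI. Atf3 had 0 to 44 UMIs with a median of 7 in IEG-high cells, and 0 to 4 with a median of 0 in IEG-low cells. Fosb had 0 to 34 UMIs with a median of 6 in IEG-high cells, and 0 to 3 with a median of 0 in IEG-low cells. Nr4a1 was sparse, with a median of 1 UMI and none at all in 31.8% of IEG-high cells, and with none in 93.8% of IEG-low cells. The ranges of every gene overlapped between the groups.

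Summed over cells, Atf3 stood at 1051 CPM (counts per 1e6 UMIs of the group) in IEG-high cells and 32.4 CPM in IEG-low cells. Fosb stood at 878 CPM in IEG-high and 27.4 CPM in IEG-low cells, and Nr4a1 at 238 CPM in IEG-high and 9.89 CPM in IEG-low cells. Fos stood at 4997 CPM in IEG-high and 205 CPM in IEG-low cells, and Jun at 3199 CPM in IEG-high and 274 CPM in IEG-low cells. The ratios of IEG-high to IEG-low were 32.4 for Atf3, 32.1 for Fosb, 24.4 for Fos, 24.0 for Nr4a1 and 11.7 for Jun. With cells ranked within quintiles of UMI count the ratio was 14.9 for Fos and 18.4 for Fosb, and within quintiles of mitochondrial share it was 13.2 for Fos and 18.3 for Fosb. The size of these ratios depends on how far out the ends are taken, with Fos at 56.4 for 10% ends and 9.96 for 30% ends. Together the 5 genes made up 1.04% of the UMIs of IEG-high cells and 0.0548% of those of IEG-low cells. Fos and Jun supplied 48.2% and 30.9% of the 5-gene UMIs in IEG-high cells. Ranking without Fos still kept 81.8% of the IEG-high cells in the highest group, and ranking without Jun kept 86.2%.

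The cells formed a continuum in the 5-gene sum. IEG-high cells had 77.5 to 223 UMIs of the 5 genes per 10000, with a median of 97.8, and IEG-low cells had 0 to 12.1 with a median of 5.09. At the IEG-high limit the cell just inside had 77.54 and the cell just outside 77.46, and at the IEG-low limit they had 12.13 and 12.16. The median over all 2891 cells was 42.5. Among the 258 cells left out by the Ager filter the median was 33.3, and 22 of them would have passed the IEG-high limit.

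**Figure D1:**
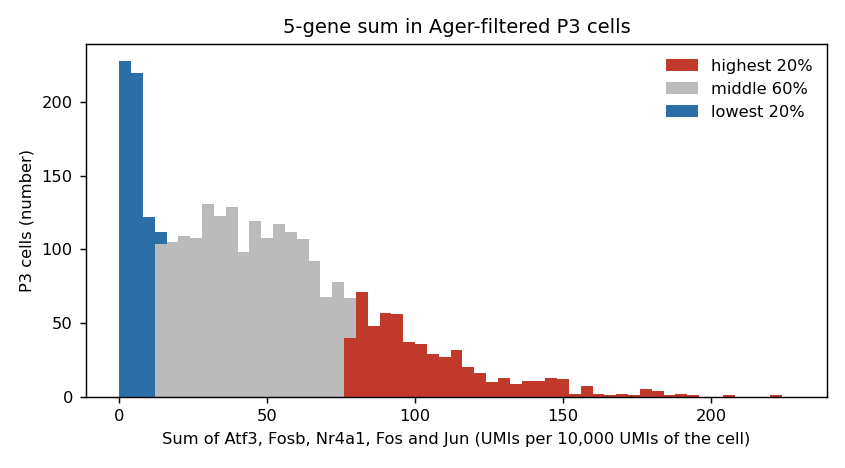
Number of P3 cells (y axis) by their summed level of Atf3, Fosb, Nr4a1, Fos and Jun in UMIs per 10000 (x axis), for the 2891 Ager-filtered cells. The highest 20% start at 77.5, the lowest 20% end at 12.1, and there is no gap at either limit.

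The 5 genes varied together from cell to cell. As a description over 2891 cells, which share a library and its depth, Spearman coefficients between pairs ran from 0.37 for Nr4a1 with Jun to 0.73 for Fos with Jun. When each gene was left out of the ranking in turn, its own level also differed between the ends formed by the other 4. Atf3 was then 947 CPM in the highest 20% and 39.0 CPM in the lowest 20%, a ratio of 24.3. The ratios were 22.8 for Fosb, 17.9 for Nr4a1, 10.2 for Fos and 7.58 for Jun. In these rankings 81.8 to 97.2% of the IEG-high cells stayed in the highest group. The 5 genes were chosen as 1 set, so these values describe the rule and are no test of it.

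IEG-high cells carried AT1 markers within 2-fold of the IEG-low levels, mostly below them. The 30 AT1 markers summed to 49067 CPM in IEG-high and 51115 CPM in IEG-low cells, and none of the 30 differed by 2-fold. Of the 30, 7 had a ratio above 1, and Igfbp2 was lowest-lying among those described below, at 0.53. Ager is 1 of the 30 and supplied 16529 CPM in IEG-high and 16880 CPM in IEG-low cells, which the filter on Ager partly sets. List members were counted from 30 UMIs in both groups together. Over all 9656 such genes 1.35% passed 2-fold upward, 0.559% passed it downward, 4209 had a ratio above 1, and the median log2 ratio was -0.04. Ager, a receptor gene of the immunoglobulin superfamily that marks AT1 cells, ranged from 37 to 418 UMIs with a median of 121 in IEG-high cells and from 27 to 311 with a median of 111 in IEG-low cells. Hopx, a homeodomain-only protein gene, stood at 954 CPM in IEG-high and 974 CPM in IEG-low cells. The water channel gene Aqp5 stood at 1908 CPM in IEG-high and 1782 CPM in IEG-low cells. Pdpn, which encodes the surface protein used in the sort, was 764 CPM in IEG-high and 995 CPM in IEG-low cells.

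Depth and quality were not the same in the 2 groups. The median was 7133 UMIs and 2453.5 genes in IEG-high cells, against 6520 UMIs and 2350 genes in IEG-low cells. After each cell had been thinned to 3000 UMIs the medians were 1391 genes in IEG-high and 1409 in IEG-low cells. The mitochondrial share had a median of 1.97% in IEG-high and 2.54% in IEG-low cells, and ribosomal protein genes took 20.1% of UMIs in IEG-high and 20.2% in IEG-low cells. Malat1, a nuclear noncoding RNA, took 4.83% in IEG-high and 3.72% in IEG-low cells. With cells ranked within quintiles of UMI count 42 genes were at least 2-fold higher, and within quintiles of mitochondrial share 41 were, against 47 as described below. Among named genes past 2-fold, the ratios of Fos, Fosb, Egr1, Cxcl1, Hspa1a, Nfkbiz and Sftpa1 moved by over 1.5 times under these rankings, as given beside them.

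Genes listed as markers of other lung cells had UMIs in both groups. AT2 markers summed to 3784 CPM in IEG-high and 3595 CPM in IEG-low cells. Of these, Sftpc was 1084 CPM in IEG-high and 923 CPM in IEG-low cells, and its direction turned in 6 settings. A single cell held 26.2% of the Sftpc UMIs among IEG-high cells and another 43.4% among IEG-low cells. Club markers summed to 1738 CPM in IEG-high and 1931 CPM in IEG-low cells. Ciliated markers summed to 1527 CPM in IEG-high and 1701 CPM in IEG-low cells. Most of this sum came from Tppp3 (864 CPM in IEG-high cells) and Sec14l3 (623 CPM), which is also on the club list. The richest IEG-high cell held 1.77% of the Tppp3 UMIs and 0.57% of the Sec14l3 UMIs, so both genes were spread over many cells. Endothelial markers summed to 195 CPM in IEG-high and 178 CPM in IEG-low cells, and Esam alone supplied 160 CPM in IEG-high cells. Immune markers summed to 72.1 CPM in IEG-high and 84.2 CPM in IEG-low cells, with Ptprc and Cd52 at 0 in IEG-high cells. Csf1r alone supplied 57.0 CPM of the immune sum in IEG-high cells. Fibroblast and mural markers summed to 11.7 CPM in IEG-high and 13.4 CPM in IEG-low cells, with Pdgfra, Pdgfrb, Tcf21 and Postn at 0 in IEG-high cells. Of the measured members of these lists, Egfl7 (endothelial) was at least 2-fold higher, S100a8 and S100a9 (immune) at least 2-fold lower, and Sftpa1 and Lyz1 (AT2) are described below. At least 2 UMIs of each of 3 AT2 markers were found in 348 IEG-high (60.2%) and 286 IEG-low cells (49.5%). Cells were not thinned for this count, and IEG-high cells were deeper (median 7133 against 6520 UMIs). By the same rule ciliated markers were found in 3 IEG-high and 1 IEG-low cells, and endothelial markers in 2 IEG-high and 0 IEG-low cells.

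Across all genes, those with at least 50 CPM and 30 UMIs in the higher group were counted, 2944 in all. At least 2-fold higher in IEG-high cells were 47 genes (1.6% of those counted), 5 of which are the genes of the sum. At least 2-fold lower were 2 genes (0.0679%). With 1 library there is no replicate check, so genes were counted by size alone, and the intervals given in parentheses are exact Poisson 95% intervals of the ratio that cover counting error only.

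The other 42 genes included transcription factors of the immediate-early class. Egr1, a zinc finger factor induced by serum and mechanical stimuli, had 0 to 19 UMIs per IEG-high cell with a median of 3, against 0 to 4 with a median of 0 in IEG-low cells. It summed to 465 CPM in IEG-high and 25.1 CPM in IEG-low cells, 18.5-fold higher (15.1 to 22.9). Its ratio was 11.1 within quintiles of UMI count, 11.8 within quintiles of mitochondrial share, 11.9 without Fos in the ranking, 9.08 with 30% ends and 34.7 with 10% ends. Ier2, an immediate-early nuclear protein gene, was 852 CPM in IEG-high and 133 CPM in IEG-low cells, 6.41-fold higher (5.85 to 7.04). The Krüppel-like factor genes Klf4, Klf2 and Klf6 were 4.03-fold, 3.97-fold and 3.68-fold higher. Klf6 was detected in all but 11 IEG-high cells, at a median of 8 UMIs against 2 in IEG-low cells. Of the 23 measured genes on the list of other immediate-early transcription factors, 14 were at least 2-fold higher and none lower, with a median log2 ratio of 1.20. The background shares given above for the AT1 list apply here and to the lists below, and since the split was made on 5 related genes nothing is read from these counts. Csrnp1, a nuclear protein gene below the 50 CPM limit, was 46.9 CPM in IEG-high and 7.86 CPM in IEG-low cells.

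Partners of the AP-1 factors were divided. Junb had 0 to 40 UMIs with a median of 9 in IEG-high cells, against 0 to 13 with a median of 1 in IEG-low cells. It summed to 1313 CPM in IEG-high and 201 CPM in IEG-low cells, 6.55-fold higher (6.08 to 7.06), and 4.24-fold with 30% ends. Jund, usually the more constitutive Jun gene, was 743 CPM in IEG-high and 232 CPM in IEG-low cells, 3.20-fold higher (2.97 to 3.44). The small Maf gene Maff was 2.53-fold higher (1.97-fold with 30% ends), and Atf4, the effector of the integrated stress response, was 235 CPM in IEG-high and 131 CPM in IEG-low cells, a ratio of 1.80. In total 3 of the 8 measured partners were at least 2-fold higher, with a list median of 0.59 on the log2 scale.

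**Figure D2:**
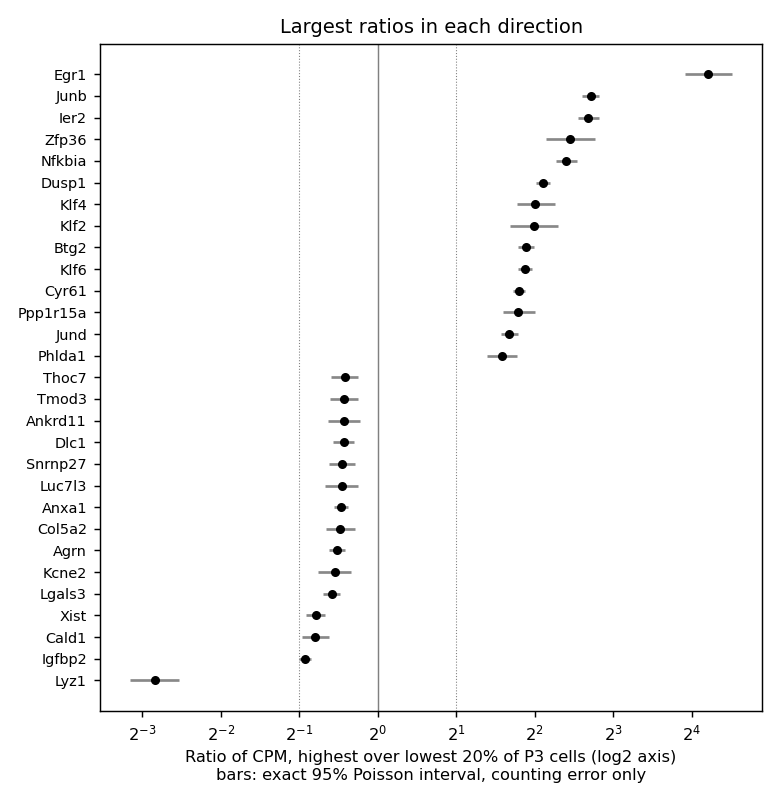
Ratio of CPM in IEG-high over IEG-low cells (x axis, log2 scale) for 14 genes with the largest ratios above 1 and 15 with the largest below 1, from 100 CPM and without the genes of the sum; bars are exact 95% Poisson intervals. Egr1 stands at 18.5 and Lyz1 at 0.14, and no other gene plotted on the lower side passes 2-fold.

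Some genes known to dampen MAP kinase signalling were also among the 42. Dusp1, a phosphatase that inactivates MAP kinases, had 0 to 40 UMIs with a median of 10 in IEG-high cells, against 0 to 14 with a median of 2 in IEG-low cells. It summed to 1398 CPM in IEG-high and 324 CPM in IEG-low cells, 4.31-fold higher (4.06 to 4.58). Dusp6, the phosphatase specific to ERK, was 97.3 CPM in IEG-high and 26.6 CPM in IEG-low cells, 3.66-fold higher (2.95 to 4.57). The receptor feedback gene Errfi1 was 300 CPM in IEG-high and 204 CPM in IEG-low cells, and Ier3 was 639 CPM in IEG-high and 446 CPM in IEG-low cells, both under 2-fold. Of 14 measured MAPK feedback genes 3 were at least 2-fold higher, with a median log2 ratio of 0.46.

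Nfkbia, which encodes the inhibitor IkB-alpha and is itself an NF-kappaB target, had 0 to 32 UMIs with a median of 4 in IEG-high cells, against 0 to 12 with a median of 1 in IEG-low cells. It summed to 730 CPM in IEG-high and 138 CPM in IEG-low cells, 5.29-fold higher (4.83 to 5.80), and 3.05-fold in cells with Xist UMIs, an alternative added after the data had been seen. Nfkbiz, a nuclear IkB protein gene, was 34.5 CPM in IEG-high and 4.31 CPM in IEG-low cells, a ratio of 8.005 (4.70 within quintiles of UMI count). That ratio rested on 17 IEG-low UMIs, with an interval of 4.84 to 14.1. Tnfaip3, the ubiquitin-editing inhibitor A20, was 25.4 CPM in IEG-high and 7.86 CPM in IEG-low cells, and Relb, an NF-kappaB subunit, was 23.0 CPM in IEG-high and 11.4 CPM in IEG-low cells. Nfkbiz, Tnfaip3 and Relb all lay below the 50 CPM limit. With Nfkbia they were the 4 of 14 measured genes on the NF-kappaB feedback list that were at least 2-fold higher. The list median was 0.24. Relb fell short of 2-fold in 8 settings, with a lowest ratio of 1.67 within quintiles of mitochondrial share.

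Genes of messenger RNA decay and growth arrest formed a further group. Btg2, an antiproliferative gene linked to deadenylation, was 911 CPM in IEG-high and 246 CPM in IEG-low cells, 3.71-fold higher (3.46 to 3.98). Zfp36, which encodes the AU-rich element binding protein tristetraprolin, was 137 CPM in IEG-high and 25.1 CPM in IEG-low cells, 5.46-fold higher (4.41 to 6.82). Tob1, a relative of Btg2, was 139 CPM in IEG-high and 56.3 CPM in IEG-low cells, and Phlda1 was 3.00-fold higher. Of the 20 measured members 7 were at least 2-fold higher and none lower, with a median of 0.67. Proliferation genes summed to 1197 CPM in IEG-high and 1106 CPM in IEG-low cells, and none of the 6 measured passed 2-fold.

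Cyr61, a matricellular protein gene and a standard YAP target, had 0 to 88 UMIs with a median of 10 in IEG-high cells, against 0 to 48 with a median of 2 in IEG-low cells. It summed to 1605 CPM in IEG-high and 461 CPM in IEG-low cells, 3.48-fold higher (3.30 to 3.66). The matricellular gene Thbs1 was 95.3 CPM in IEG-high and 44.1 CPM in IEG-low cells, a ratio of 2.16 that fell short of 2-fold in 5 settings (1.92 within quintiles of UMI count) and was 3.47 with 10% ends. Of the 21 measured SRF, YAP and TAZ targets, 4 were at least 2-fold higher and 1 (Ankrd1) was at least 2-fold lower, and the median was -0.09. The tissue factor gene F3, on the same list, was 646 CPM in IEG-high and 859 CPM in IEG-low cells.

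Stress pathways were represented by a few genes each. Ppp1r15a, which encodes the phosphatase subunit GADD34, was 221 CPM in IEG-high and 63.9 CPM in IEG-low cells, 3.46-fold higher (3.01 to 3.99). Together with Ddit4 and Trib1 (1.80-fold within quintiles of mitochondrial share) it made 3 of 18 measured genes of the integrated stress and unfolded protein responses, and the list median was -0.02. The endoplasmic reticulum chaperone gene Hsp90b1 was 349 CPM in IEG-high and 451 CPM in IEG-low cells. Among 20 heat shock and chaperone genes 3 were at least 2-fold higher. Hspa1a, the inducible HSP70 and below the 50 CPM limit, was 35.4 CPM in IEG-high and 3.30 CPM in IEG-low cells. Its ratio of 10.7 (6.73 within quintiles of mitochondrial share) rested on 13 IEG-low UMIs, with an interval of 6.10 to 20.6. Dnajb1 was 115 CPM in IEG-high and 45.9 CPM in IEG-low cells, and Dnajb4 was 180 CPM in IEG-high and 84.7 CPM in IEG-low cells. The Dnajb4 ratio of 2.12 fell short of 2-fold in 5 settings, with a lowest value of 1.84. The list median was 0.07.

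Ligand genes were few among those higher. Hbegf, an EGF receptor ligand, was 185 CPM in IEG-high and 85.7 CPM in IEG-low cells, 2.16-fold higher (1.90 to 2.46). Its ratio fell just short of 2-fold within quintiles of UMI count (1.96) and of mitochondrial share (1.95), and in 3 further settings, the lowest being 1.64. The chemokine gene Cxcl1, below the 50 CPM limit, was 26.3 CPM in IEG-high and 1.52 CPM in IEG-low cells. Its ratio of 17.3 (11.1 within quintiles of UMI count) rested on 6 IEG-low UMIs, with an interval of 7.72 to 48.1. A single cell held 26.1% of its IEG-high UMIs. Hbegf and Cxcl1 were 2 of 15 measured ligands, and the list median was -0.06. Pdgfb, a growth factor for mural cells, was 58.4 CPM in IEG-high and 77.1 CPM in IEG-low cells.

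No member passed 2-fold among 11 apoptosis regulators, 17 antioxidant and metallothionein genes, 7 glucocorticoid response genes or 18 interferon and class I genes. Their medians were 0.12, -0.01, -0.02 and 0.01 on the log2 scale. Mcl1, a survival factor of the BCL2 family, was 267 CPM in IEG-high and 191 CPM in IEG-low cells, a ratio of 1.39. Tsc22d3, a direct glucocorticoid receptor target, was 153 CPM in IEG-high and 158 CPM in IEG-low cells.

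**Figure D3:**
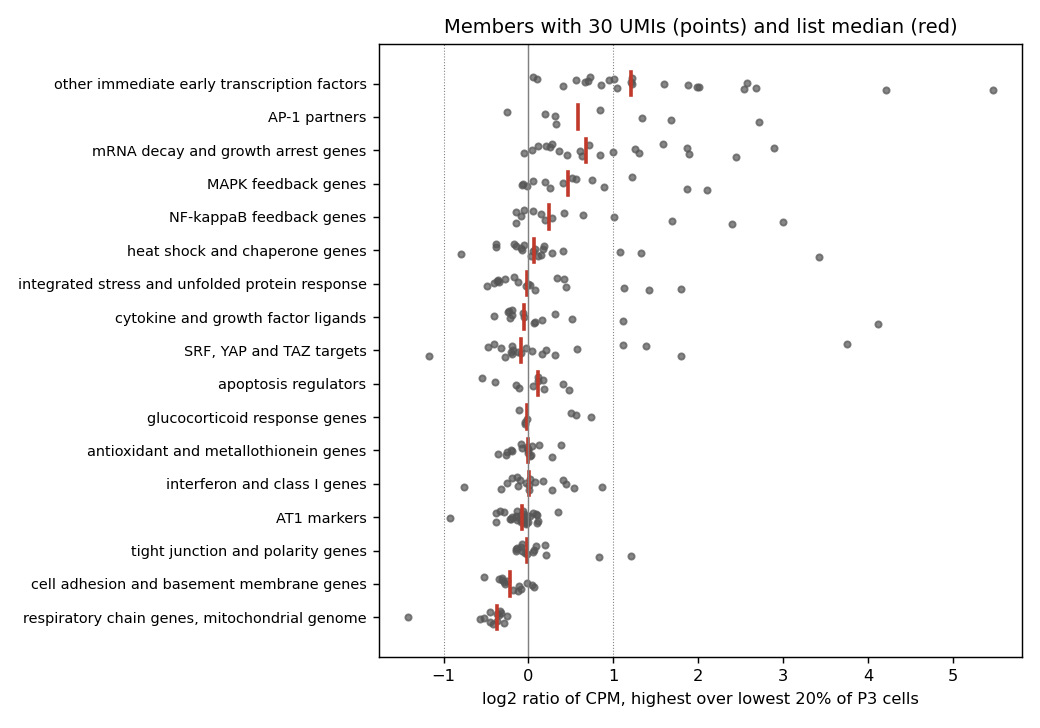
Log2 ratio of CPM in IEG-high over IEG-low cells (x axis) for the members of 17 gene lists with at least 30 UMIs; each point is a gene and the red bar the list median. The list of other immediate-early transcription factors has its median at 1.20, and the AT1 markers have theirs at -0.08.

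Claudin genes were unequal. Cldn4 was 82.9 CPM in IEG-high and 35.7 CPM in IEG-low cells, 2.32-fold higher (1.91 to 2.84). Its ratio was 1.77 within quintiles of mitochondrial share, 1.82 after thinning and 1.31 without cells holding 3 markers of another type, and 17.7% of its IEG-low UMIs were in 1 cell. Cldn3 was 807 CPM in IEG-high and 455 CPM in IEG-low cells, a ratio of 1.77. Cldn7 was 309 CPM in IEG-high and 267 CPM in IEG-low cells. All 3 encode tight junction strand proteins, and they stood among 15 measured tight junction and polarity genes with a median of -0.01.

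Some of the largest ratios belonged to neighbours of the chosen genes, named here after their values had been seen. Fam71a was 99.1 CPM in IEG-high and 2.79 CPM in IEG-low cells. It lies on chromosome 1 from 191162584 to 191164817 (GENCODE, GRCm38), 5479 bases downstream of Atf3 on the same strand. The noncoding RNA Gm26802 was 56.4 CPM in IEG-high and 2.53 CPM in IEG-low cells, and lies 1926 bases downstream of Fosb on the same strand. Reads of such a pair cannot be told apart from long transcripts of the neighbour with these counts. Jun overlaps Junos on the opposite strand and Junb overlaps Prdx2, and whether counting used strand was not given in the sources used here.

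Of the 42 genes other than the 5, 28 matched the promoter table with 35 windows. The full CRE palindrome TGACGTCA was in 6 windows (17.1%), those of Btg2, Dusp1, Maff, Ppp1r15a, Slc25a25 and Tra2a. It was in 588 of all 32851 windows (1.79%) and in 104 of the 2930 windows of genes counted at P3 (3.55%). The other motifs searched were near the share among genes counted at P3. The core CGTCA was in 42.9% of the 35 windows against 35.2% of the 2930, the AP-1 motif in 2.86% against 4.74%, the CArG box in 2.86% against 1.64%, and the NF-kappaB motif in 8.57% against 10.8%. A match describes these letters in this window and is not evidence that a factor bound there.

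Fewer genes passed 2-fold on the lower side. Over the 2944 genes counted, 36.7% had a ratio above 1, so most lay below 1 without reaching 2-fold. Igfbp2, an insulin-like growth factor binding protein gene known as a marker of mature AT1 cells, had 0 to 39 UMIs with a median of 1 in IEG-high cells, against 0 to 60 with a median of 3 in IEG-low cells. It summed to 465 CPM in IEG-high and 881 CPM in IEG-low cells, a ratio of 0.53 (0.50 to 0.56), short of 2-fold. With 10% ends it was at least 2-fold lower, and over all settings its log2 ratio ran from -1.31 to -0.46. Cald1, an actin-binding caldesmon gene, was 103 CPM in IEG-high and 180 CPM in IEG-low cells. The galectin gene Lgals3 was 250 CPM in IEG-high and 376 CPM in IEG-low cells. The basement membrane genes Agrn, Col4a1, Col4a2 and Hspg2 had ratios of 0.70, 0.80, 0.79 and 0.81, and the list of 14 adhesion and basement membrane genes had a median of -0.21 with no member at 2-fold. The 13 respiratory chain genes of the mitochondrial genome had a median of -0.37, and 1 of them, mt-Nd6, passed 2-fold.

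The 2 genes counted as at least 2-fold lower were Lyz1 and Fjx1, of which Fjx1 is named after its value had been seen. Lyz1, a lysozyme gene of AT2 cells, was 22.1 CPM in IEG-high and 158 CPM in IEG-low cells, and 1 cell held 27.0% of its UMIs among IEG-high cells and another 62.5% among IEG-low cells. Fjx1 was 36.7 CPM in IEG-high and 87.2 CPM in IEG-low cells. Sftpa1, a surfactant protein gene of AT2 cells on the higher side, was 100.2 CPM in IEG-high and 44.1 CPM in IEG-low cells, with 38.0% of its IEG-high UMIs in 1 cell. Leaving out the richest cell of each end, an alternative added after the data had been seen, took Sftpa1 below 2-fold (1.93) and left Lyz1 at a ratio of 0.27. The direction of Lyz1 turned in 3 settings, with ratios of 1.42 with 10% ends, 1.74 without cells holding 3 markers of another type and 1.90 in cells without Xist. That of Sftpa1 turned in 4 settings, with ratios of 0.58 to 0.97, so neither gene has a settled direction.

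Xist, the noncoding RNA that silences an X chromosome in female cells, moved with the split. An Xist UMI was found in 29.1% of IEG-high cells (25.4 to 33.0, exact binomial) and 42.4% of IEG-low cells (38.3 to 46.5). Both intervals cover the counting of cells within 1 library and not the spread between animals, so the difference was not tested. After thinning to 3000 UMIs the shares were 24.0% of IEG-high and 37.0% of IEG-low cells. A UMI of any of 4 listed Y-linked genes was found in 30.8% of IEG-high and 16.6% of IEG-low cells. Over quintiles of the sum, lowest to highest, Xist was found in 42.5, 47.1, 45.7, 38.6 and 29.1% of cells. Of the 1173 cells with an Xist UMI, 14.3% were IEG-high, against 23.9% of the 1718 cells without. Igfbp2 stood at 760 CPM in cells with an Xist UMI and 560 CPM in cells without. The split was then made within each kind of cell, an alternative added after the data had been seen. Among cells with Xist 40 genes were at least 2-fold higher and 4 lower, 36 of the 40 being among the 47. Among cells without Xist 50 were higher and 0 lower, 45 of them among the 47. How many animals gave these cells is not known, so sex and animal of origin cannot be told apart.

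The levels changed in a graded way along the sum. Over quintiles of the filtered cells, from the lowest to the highest, Egr1 stood at 25.02, 95.7, 177, 281 and 465 CPM, and Junb at 200, 460, 709, 917 and 1313 CPM. Of the 42 genes beyond the 5, 36 were higher in each quintile than in the one before, and 28 were already more than 2-fold higher in quintile 4 than in quintile 1. Quintile 5 exceeded quintile 4 by more than 2-fold for 1 of them, the antisense RNA Gm17056. Igfbp2 stood at 879, 728, 588, 606 and 465 CPM over the same quintiles. Cldn3 stood at 455, 509, 585, 686 and 807 CPM, and Ager between 16529 and 16884 CPM throughout.

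**Figure D4:**
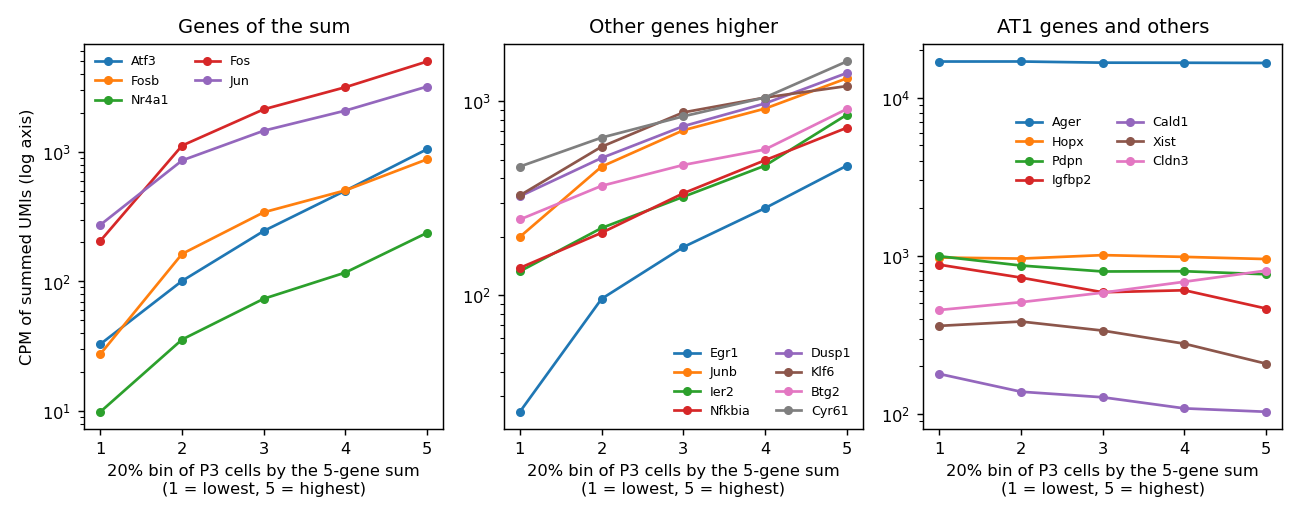
CPM of summed UMIs (y axis, log scale) in quintiles of the P3 cells by the 5-gene sum, from lowest to highest (x axis), for the genes of the sum, other genes higher in IEG-high cells, and AT1 and other genes. Egr1 runs between 25.02 and 465 CPM while Ager stays between 16529 and 16884 CPM.

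Cells at the IEG-high level were found mainly in the P3 library. After every cell had been thinned to 900 UMIs, 23.3% of filtered P3 cells reached the IEG-high limit, a share near 20% that the rule sets. It was reached by 0.416% of P15 AT1 cells (0.208 to 0.743), 0.587% of P60 AT1 cells (0.236 to 1.21) and 0.152% of P60 AT2 cells (0.0313 to 0.443). These exact binomial intervals cover the counting of cells within 1 library and say nothing of the spread between animals. Without thinning the shares were 19.99% at P3, 0.113% at P15, 0.252% in P60 AT1 cells and 0.0506% in AT2 cells, the first of which the rule fixes. The 5 genes summed to 4865 CPM over filtered P3 cells, 1111 CPM at P15, 330 CPM in P60 AT1 cells and 707 CPM in AT2 cells. Each age is 1 library, so age, animal and the handling of that day cannot be told apart.

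The same split was made in the other libraries, whose cells the P3 rule did not use. Ends were again the highest and lowest 20% by the 5-gene sum, among cells with at least 0.5 times their library's median Ager, or Sftpc for AT2 cells. At P15 each end held 529 cells, and the median sum was 23.7 per 10000 at the high end and 0 at the low end. In P60 AT1 cells each end held 238 cells, the high end had a median sum of 6.11, and every low-end cell was at 0. In AT2 cells each end held 395 cells, the high end had a median sum of 17.1, and every low-end cell was again at 0. Cells tied at 0 were taken in file order, from 471 such P60 AT1 cells and 415 such AT2 cells. High-end cells were also deeper than low-end cells, with medians of 5511 UMIs at the high end and 4041 at the low end at P15. The medians were 5625.5 UMIs at the high end and 4045.5 at the low end in P60 AT1 cells, and 5185 at the high end and 4118 at the low end in AT2 cells. With cells ranked within quintiles of UMI count, 29 genes were at least 2-fold higher at P15, 11 in P60 AT1 cells and 8 in AT2 cells, beside the counts that follow.

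At P15, 24 genes were at least 2-fold higher at the high end (0.751% of those counted) and 4 lower (0.125%). In P60 AT1 cells 13 were higher (0.386%) and 0 lower (0%), and in AT2 cells 11 were higher (0.5%) and 1 lower (0.0454%). Without the 5 genes of the sum, the P15 split shared 14 genes with the P3 split, which is 33.3% of the 42 at P3 and 70.0% of the 20 at P15. The P60 AT1 split shared 5, which is 11.9% of the 42 and 55.6% of its own 9. The AT2 split shared 7, which is 16.7% of the 42 and 87.5% of its own 8. Of the 42 genes, 32 had enough UMIs to be counted at P15 and 31 of those had a ratio above 1. The corresponding numbers were 17 of 20 in P60 AT1 cells and 15 of 15 in AT2 cells. Over all genes counted, a ratio above 1 was found for 55.0% at P15, 56.0% in P60 AT1 cells and 38.9% in AT2 cells. The genes lower at P15 were Isg15, Lars2, Lgals3bp and Oasl2, and the gene lower in AT2 cells was Retnla, all named after their values had been seen. Isg15, an interferon-induced ubiquitin-like protein gene, was 82.6 CPM at the high end and 191 CPM at the low end at P15. The P15 high end also held at least 2-fold more of the AT2 genes Sftpc, Sftpb and Lyz2, named likewise after their values had been seen.

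Egr1, Junb and Dusp1 were at least 2-fold higher in all 4 splits. Egr1 was 89.8 CPM at the high end and 8.59 CPM at the low end at P15, a ratio of 10.45. It was 95.7 CPM at the high end and 8.73 CPM at the low end in P60 AT1 cells, and 229 CPM at the high end and 21.5 CPM at the low end in AT2 cells. These are ratios of 10.96 in P60 AT1 cells and 10.7 in AT2 cells. Junb had ratios of 2.85 at P15, 2.74 in P60 AT1 cells and 3.09 in AT2 cells. Dusp1 had ratios of 2.05 at P15, 2.06 in P60 AT1 cells and 3.48 in AT2 cells. Cyr61 was at least 2-fold higher at all 3 AT1 ages, at 1501 CPM at the high end and 581 CPM at the low end at P15, and at 1133 CPM at the high end and 532 CPM at the low end at P60.

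Klf2, Klf4, Klf6, Nfkbia, Phlda1, Dusp6, Maff, Cdkn1a, Trib1 and Sftpa1 were the other genes at least 2-fold higher at both P3 and P15. Klf4 was 118 CPM at the high end and 30.3 CPM at the low end at P15, a ratio of 3.90. Nfkbia had a ratio of 2.11 at P15 (1.95 to 2.30) and of 1.10 in P60 AT1 cells (0.93 to 1.29), a difference that was not tested. The number of genes counted as at least 2-fold higher at P3 and in no other split was 25 of the 42, a difference that was not tested either. Only 32 of the 42 were counted at P15, 20 in P60 AT1 cells and 15 in AT2 cells, so some could not be called there whatever their ratio. Among those too sparse to be counted at P15, some had ratios above 2 there, named after their values had been seen. They were Fam71a (14.7), Gm26802 (8.28), Gm17056 (6.10) and Socs3 (2.88). The others too sparse at P15 lay below 2, such as Thbs1 at 1.18. All of the 25 but Cldn4 and Tra2a (0.99) had a ratio above 1 at P15, beside 55.0% of all genes counted there. The Cldn4 ratio of 0.45 (0.07 to 2.32) came from too few UMIs to be counted and gives no direction. At P15 the ratio of Zfp36 was 1.85 and that of Jund 1.58. Jund was 1086 CPM at the high end and 816 CPM at the low end in P60 AT1 cells, a ratio of 1.33 (1.22 to 1.45). The larger contrast of the 5 genes themselves at P3 means that these counts do not compare the libraries at an equal degree of activation.

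**Figure D5:**
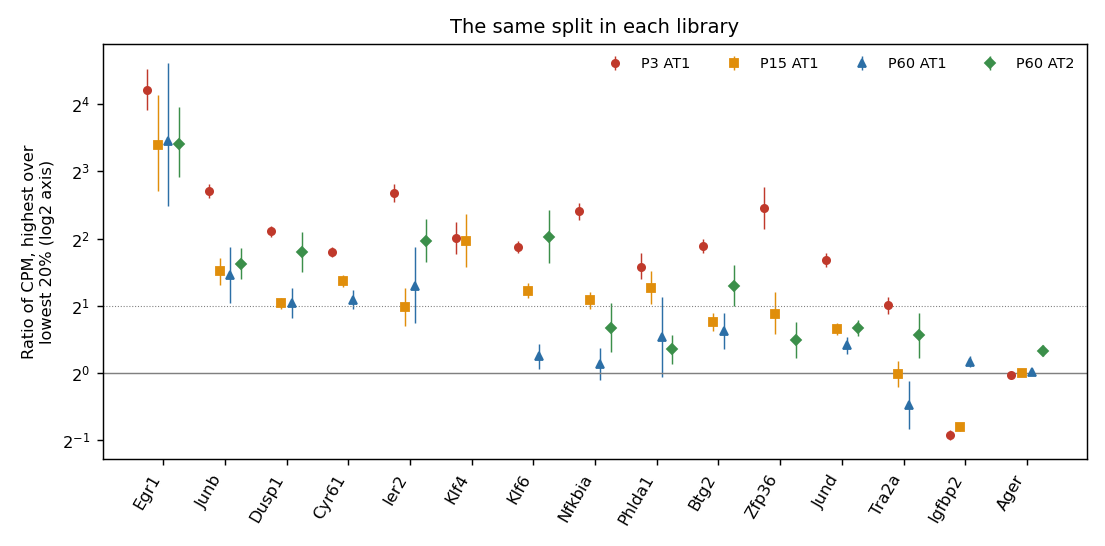
Ratio of CPM in the highest over the lowest 20% of cells by the 5-gene sum (y axis, log2 scale) for 15 genes (x axis) in each library; bars are exact 95% Poisson intervals, and genes too sparse to be counted in a library are not plotted there. Egr1, Junb and Dusp1 lie above 2 in every library, and Nfkbia lies at 5.29 at P3 and 1.10 in P60 AT1 cells.

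Igfbp2 was lower at the high end in the younger AT1 libraries. At P15 it was 1272 CPM at the high end and 2211 CPM at the low end, a ratio of 0.58 (0.55 to 0.60), beside 0.53 at P3. In P60 AT1 cells it was 2079 CPM at the high end and 1845 CPM at the low end, a ratio of 1.13 (1.06 to 1.20). Ager had ratios of 0.98 at P3, 1.00 at P15 and 1.01 in P60 AT1 cells, which the filter on Ager partly sets.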

How the data were processed

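The deposited values are natural logs. From the numbers alone, the authors scaled every cell to 10000 UMIs and added 1 before taking the log. Cell Ranger 1.3.1, Seurat 2.0.0 and the builds mm10 and hg19 are named per the submitters' processing notes, with no role stated for hg19. Unlogged values divided by each cell's smallest step gave whole UMIs for 100% of values within 0.05. The 3' protocol counts 1 end of each transcript, so UMIs were not scaled by gene length.

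UMIs were summed over the cells of each end and divided by the total over all listed genes to give CPM (Python 3.11.15, NumPy 2.4.6, SciPy 1.17.1, pandas 2.3.3). Genes with 50 CPM in the higher end and 30 UMIs were counted from a 2-fold ratio, and a low end at 0 was set to a floor of 3 counts over the group. Genes named are the 5 of the sum, the 15 largest ratios in each direction from 100 CPM with the same direction within depth quintiles (without ribosomal, mitochondrial, haemoglobin and provisional symbols), up to 4 members per list from 20 CPM, and 7 fixed genes, except where the text says otherwise. Genes that make up a count of 5 or fewer were named after their values had been seen. The code was tested on simulated counts. The members and gene lists were chosen with earlier results of these data known. Of the genes this rule names, 1 is not reported here.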

Additional observations from a re-analysis of the deposited data

Results flagged for a closer look

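Each age is 1 library, so the differences below were not tested. They were picked because the ratio of the high to the low end lay on the other side of 1 at P15 or in P60 AT1 cells than at P3, with both counting intervals clear of 1. Igfbp2 had a ratio of 1.13 in P60 AT1 cells and 0.53 at P3. Lgals3 had 1.15 at P15, 1.13 in P60 AT1 cells and 0.67 at P3. F3 had 1.15 at P15, 1.27 in P60 AT1 cells and 0.75 at P3, and Anxa1 had 1.13 at P15 and 0.72 at P3. Sec14l3 and Tppp3 had 1.10 and 1.13 at P15, and 0.91 and 0.88 at P3. Other genes lay above 1 at P3. Neat1 had 0.59 at P15, 0.83 in P60 AT1 cells and 1.298 at P3, and Malat1 had 0.94 in P60 AT1 cells and 1.297 at P3. H2-K1, a class I gene, had 0.62 at P15 and 1.13 at P3, and the tubulin gene Tubb5 had 0.71 at P15 and 1.18 at P3. Ier3 had 0.93 at P15 and 1.43 at P3, Timp3 had 0.92 in P60 AT1 cells and 1.27 at P3, and Aqp5 had 0.96 at P15 and 1.07 at P3.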

How the results depend on the processing

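All of 18 planned and 3 added alternatives on the P3 split gave 31 to 66 genes at least 2-fold higher, against 47 as reported. The count was 31 with a minimum of 100 CPM and between 36 and 66 otherwise, and 30% ends gave 36, all of them among the 47. The lower count, reported as 2, was 6 with 10% ends, 1 with 30% ends, 16 without the Ager filter, and 4 without cells holding 3 markers of another type, mostly AT2 transcripts, a setting that left out 1808 of the 2891 cells. It was 1 with the mean of scaled log values as the sum, with ranking within quintiles of mitochondrial share and with a minimum of 100 CPM. In alternatives added after the data had been seen it was 4 in cells with Xist UMIs and 0 in cells without. The cause was not tested. Without the Ager filter the genes gained on the lower side included the club cell genes Scgb1a1 and Scgb3a2. Lyz1 turned positive on the log2 scale with 10% ends (0.51), without those marker-holding cells (0.80) and in cells without Xist (0.92). Sftpa1 turned negative without the Ager filter (-0.32), without marker-holding cells (-0.048), within depth quintiles (-0.79) and in cells without Xist (-0.63). With a total that leaves out ribosomal, mitochondrial, haemoglobin and the 5 genes, the P60 AT1 split gave 1 lower gene, and the AT2 split 17 higher and 3 lower. The AT2 split gave 24 higher genes without the Sftpc filter. Over all settings the median of the other immediate-early transcription factors stayed between 0.94 and 1.37. Medians near 0 changed sign under 2 to 8 settings for the ligand, integrated stress, antioxidant, apoptosis, glucocorticoid, interferon and tight junction lists. The Igfbp2 ratio at P3 kept its direction in every setting. Sparse genes are limited by depth, with 1 UMI worth more than 1 per 10000 in most cells. No paired analysis was possible because each group is 1 library.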
